A study of Mus musculus with 6 samples.

Results

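The genes described here are the erythropoietin receptor gene Epor, the kinase genes Jak2 and Lyn, the transcription factor genes Stat5a and Stat5b, and 5 genes that STAT5 is known to induce, Cish, Socs1, Socs2, Socs3 and Pim1. They were chosen by symbol, and all 10 are among the 11489 genes of the table. RNA was sequenced from mouse bone marrow cells labelled as erythroblastic island macrophages and sorted by flow cytometry into F4/80+Epor-eGFP+ cells (3 libraries) and F4/80+Epor-eGFP- cells (3 libraries). By these labels both groups were sorted as positive for the F4/80 surface protein. They differed in eGFP from an Epor reporter, whose construction the labels do not describe. The labels give no strain, age, treatment or number of animals, and do not say that libraries came from separate animals. The spread behind every p-value may thus be technical.

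Erythropoietin binds its receptor on the cell surface, and the kinase JAK2, which is held on the receptor's inner tail, then phosphorylates the receptor and the STAT5 proteins. Phosphorylated STAT5a and STAT5b pair, enter the nucleus and switch on genes that include Cish, the Socs genes and Pim1. The CIS and SOCS proteins bind the receptor or the kinase and limit the signal, which makes them feedback genes, whereas Pim1 encodes a serine and threonine kinase that favours survival. Lyn, a Src family kinase abundant in myeloid cells, can also bind the receptor. The pathway is best known in erythroid progenitors, and other cytokine receptors of myeloid cells use the same JAK2 and STAT5 proteins. RNA levels do not measure phosphorylation.

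The 3 stretches of DNA below show matches to known motifs near the RefSeq starts of Epor, Cish and Socs3. The Epor stretch is the 250 bases before the RefSeq start (GRCm38.p6, chr9:21963577-21963826, minus strand), with capitals on a GATA motif, AGATAA read on either strand, and on a GC box, CCGCCCC read on either strand. The Cish stretch (chr9:107296654-107296683, plus strand) and the Socs3 stretch (chr11:117969502-117969531, minus strand) are 30 bases each, with capitals on TTCNNNGAA, the palindrome that STAT proteins are known to bind.
Epor: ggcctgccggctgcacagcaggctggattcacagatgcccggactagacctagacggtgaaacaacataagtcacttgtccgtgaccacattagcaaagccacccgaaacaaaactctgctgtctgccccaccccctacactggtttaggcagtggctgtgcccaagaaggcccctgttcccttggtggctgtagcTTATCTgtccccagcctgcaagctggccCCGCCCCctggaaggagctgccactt
Cish: cagttTTCCTGGAAagTTCTTGGAAatctg
Socs3: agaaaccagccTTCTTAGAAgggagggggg
The GATA motif of Epor begins 54 bases and its GC box 26 bases before the RefSeq start. In Cish a pair of STAT motifs begins at bases 1 and 12 counted from the RefSeq start, within an exon of the GENCODE M21 annotation, and in Socs3 a single motif begins 154 bases before the start. RefSeq windows from 250 bases before to 50 after the start were at hand for 8 of the 10 genes (11 windows), all but Lyn and Socs2. TTCNNNGAA was found in 2 of these 11 windows, those of Cish and Socs3, against 8.30% of all 32851 windows. AGATAA was found in 1 of the 11, that of Epor (11.2% of all windows), and CCGCCCC in 6 of the 11 (23.2% of all windows). These matches describe letters and not bound sites, and no binding was measured here.

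Epor transcripts followed the sort, and most of the signalling and feedback genes were lower where the receptor was higher. Levels are in FPKM, which count fragments relative to gene length and library size. Of 10964 genes that averaged at least 1 FPKM, 49.0% passed limma's test at an adjusted p of 0.05, 22.7% of all tested genes higher in Epor-eGFP+ and 26.3% lower. All 10 members were tested, although Epor and Socs2 reached the minimum of 1 FPKM only through their Epor-eGFP+ values, so both had to differ and their calls are given as descriptions. Besides Epor, which the reporter of the sort stands for, 6 of 9 members fell (Jak2, Stat5b, Cish, Socs1, Socs3 and Pim1), 1 was called higher (Socs2), and Stat5a and Lyn had no call. Apart from Epor, the groups did not overlap in 8 of 9 members, all but Lyn, against 60.4% of all tested genes. Socs2, which had to differ, is among the 8. The median log2 fold change was −0.66 over these 9 members and −0.61 with Epor, against −0.01 over all tested genes. Without Epor-eGFP+ library 0, the genes called over the whole table were 1611 higher and 2060 lower, against 2489 and 2883 with it. After rescaling to a common total, 59.5% of called genes were higher (3056 against 2082 lower), where the unscaled values gave 46.3%.

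**Figure D1:**
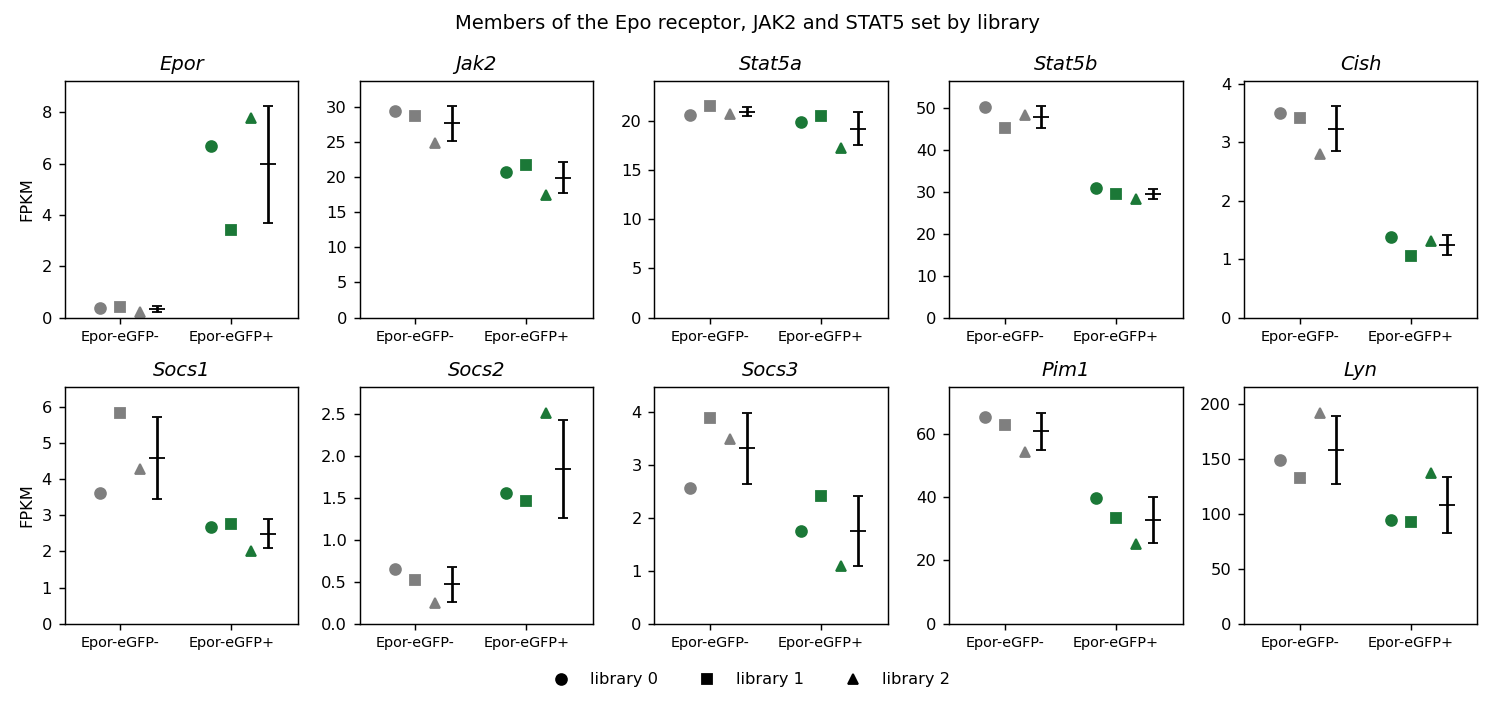
FPKM of each of the 10 genes (vertical axes, linear, from 0) in the 3 Epor-eGFP- libraries (grey) and the 3 Epor-eGFP+ libraries (green). Marker shapes give the library number, and bars the mean with its SD. Epor and Socs2 sit higher in every Epor-eGFP+ library, and the other genes lower, with overlap between the groups in Lyn alone.

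The libraries differed in other cell markers as well. Of 18 island macrophage markers 15 were higher in Epor-eGFP+ (summed FPKM 3178 to 11116 against 729 to 982), and of 22 erythroid markers 15 were higher and none lower (629 to 2089 against 83.0 to 816). With the library number as a replicate block, limma called 28.0% of all tested genes higher and 30.4% lower. By that fit 21 of the 22 erythroid markers were higher. None of them was lower by either fit, or at an unadjusted p under 0.05. At least Ermap and Rhd (0.213 and 0.133 FPKM on average in Epor-eGFP-) reached the minimum of 1 FPKM only through their Epor-eGFP+ values. Both thus had to differ, and their calls are descriptions. Of 12 monocyte markers 11 were lower (1758 to 2221 against 4538 to 5691) and 0 higher by either limma fit, also unadjusted. Of 16 neutrophil markers 11 were lower and 4 higher (20756 to 26547 against 26199 to 40524), so neutrophil transcripts outweighed the macrophage list in each library. Eosinophil markers (10) gave 1 higher and 6 lower (8066 to 15973 against 14973 to 24534), B, T and NK markers (12 tested) 4 and 2 (471 to 519 against 225 to 436), and megakaryocyte, mast cell and basophil markers (13) 1 and 3 (263 to 363 against 303 to 571). With the replicate block the last of these lists gave 5 higher and 3 lower, and the island macrophage list 16 higher and 1 lower. No marker was listed at 0 in any library except Prg2, an eosinophil granule gene named after its values were seen, in Epor-eGFP+ library 0. The low end of the eosinophil sums, 8066 FPKM, is that of this library and holds nothing from Prg2. Epor-eGFP+ libraries 1 and 2 summed to 15197 and 15973 FPKM. Adgre1, the gene of F4/80, was at 117 to 241 FPKM in Epor-eGFP+ and at 132 to 139 in Epor-eGFP-. The part of these cells in the values of the 10 genes was not tested, and in such bulk samples fewer cells of a type and less RNA per cell cannot be told apart.

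Epor, the receptor itself, was at 0.375, 0.414 and 0.217 FPKM in Epor-eGFP- cells and at 6.67, 3.43 and 7.78 FPKM in Epor-eGFP+ cells, here and below in the order of the library numbers 0, 1 and 2. Every Epor-eGFP+ library was far above every Epor-eGFP- library, the direction that the labels give. Group means were 5.96 ± 2.26 against 0.335 ± 0.105 FPKM (SD, n = 3 per group), 17.8-fold higher. Because the cells were sorted on the Epor reporter, this difference checks the sort and is no independent result. The gene lies on chromosome 9 from 21958897 to 21963506, minus strand (GRCm38). Within Epor-eGFP+ it peaked in library 2 and was lowest in library 1, the order also seen for Vcam1 (999 and 263 FPKM), Siglec1 (119 and 33.4) and Adgre1. Klf1, an erythroid transcription factor gene, was instead highest in library 0 (23.8 FPKM) and lowest in library 2 (15.9). The 22 erythroid markers, Klf1 among them, summed to 1314, 629 and 2089 FPKM in these libraries, the same order as Epor.

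Jak2, the receptor's kinase, was at 29.4, 28.7 and 24.9 FPKM in Epor-eGFP- and at 20.7, 21.7 and 17.4 in Epor-eGFP+. The groups were separate, and in both the lowest value was that of library 2. Jak2 fell from 27.6 ± 2.43 FPKM to 19.9 ± 2.23 (log2 fold change −0.45 on the log2(FPKM + 1) scale, SE 0.11, limma adjusted p = 0.0122). The call was lost by a narrow margin without Epor-eGFP- library 0 (−0.41, adjusted p = 0.0502) and with a common total (−0.36, adjusted p = 0.0503). Over all alternatives its adjusted p ran from 0.00313 to 0.125. Jak2 made up 17.7 ± 1.41% of the summed FPKM of the 4 JAK genes in Epor-eGFP- and 16.8 ± 2.01% in Epor-eGFP+, and these shares overlapped (exact two-sided permutation test, p = 0.5). The gene spans 29251828 to 29313080 on chromosome 19.

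The STAT5 genes, which lie head to head on chromosome 11 (Stat5b from 100780731 to 100850724, minus strand, and Stat5a from 100859351 to 100885169, plus strand), differed from each other. Stat5b was at 50.1, 45.1 and 48.2 FPKM in Epor-eGFP- and at 30.8, 29.3 and 28.3 in Epor-eGFP+. It fell by 0.68 on the log2 scale (SE 0.07, limma adjusted p = 0.000788), and its groups were far apart for their small spread. Stat5a was at 20.6, 21.5 and 20.7 FPKM against 19.8, 20.5 and 17.3. Its Epor-eGFP+ values all lay below its Epor-eGFP- values, but by little, and the test was not passed (log2 fold change −0.12, 95% interval −0.32 to 0.07, adjusted p = 0.251). The ratio of Stat5b to Stat5a within a library was 2.43, 2.102 and 2.32 in Epor-eGFP- and 1.55, 1.43 and 1.64 in Epor-eGFP+. That ratio was lower in all 3 Epor-eGFP+ libraries, at 1.54 ± 0.105 against 2.29 ± 0.169 (SD, n = 3 per group; exact two-sided permutation p = 0.1, the smallest that 3 against 3 libraries allow). The summed FPKM of both genes was 48.7 ± 2.70 against 68.7 ± 2.08. Stat5a and Stat5b are close paralogs whose shared reads are divided by estimation, and the end of Stat5a overlaps exons of Stat3 on the other strand, so the split between them is less certain than their sum.

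Cish, which encodes the STAT5-induced inhibitor CIS and carries the pair of motifs shown above, was at 3.49, 3.41 and 2.79 FPKM in Epor-eGFP- and at 1.38, 1.05 and 1.31 in Epor-eGFP+. All Epor-eGFP+ values lay below 1.5 FPKM and all others above 2.5. Cish fell from 3.23 ± 0.380 FPKM to 1.25 ± 0.172 or 2.59-fold (log2 fold change −0.91, SE 0.11, limma adjusted p = 0.00130). Its call held in all 17 alternatives that tested it. Cish lies on chromosome 9 from 107296026 to 107302784, plus strand, and shares exon positions with the minus strand genes Gm17040 and Gm17041, from which reads without strand cannot be told apart.

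Socs1, which encodes a direct inhibitor of JAK kinases, was at 3.62, 5.84 and 4.27 FPKM in Epor-eGFP- and at 2.67, 2.77 and 2.02 in Epor-eGFP+. The groups were separate, and library 1 was highest in both. Socs1 fell by 0.66 on the log2 scale (SE 0.17, limma adjusted p = 0.0158). Socs3, another inhibitor of JAK kinases, was at 2.56, 3.88 and 3.48 against 1.75, 2.40 and 1.09 FPKM. Here the gap between the groups was narrow, from 2.40 to 2.56, and library 1 was again highest in both. Socs3 fell by 0.66 as well (SE 0.20, adjusted p = 0.0324), with the least certain call of the set. That call was lost without Epor-eGFP- library 1 (adjusted p = 0.0917), Epor-eGFP- library 2 (0.0876), Epor-eGFP+ library 0 (0.0814) or Epor-eGFP+ library 2 (0.0612), and with a common total (0.0566), and over all alternatives the adjusted p ran from 0.0160 to 0.122. Socs1 lies on chromosome 16 from 10782240 to 10785536 and Socs3 on chromosome 11 from 117966079 to 117970047, both on the minus strand.

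Socs2 encodes a SOCS protein best known for limiting growth hormone signalling. It was at 0.648, 0.518 and 0.243 FPKM in Epor-eGFP- and at 1.56, 1.47 and 2.52 in Epor-eGFP+. Each Epor-eGFP+ value was over every Epor-eGFP- value, with the highest in library 2. Group means were 1.85 ± 0.583 FPKM in Epor-eGFP+ and 0.469 ± 0.207 in Epor-eGFP-, 3.94-fold higher (log2 fold change 0.95, SE 0.18), a difference that the minimum for testing helped to select. Without Epor-eGFP+ library 2 its mean over 5 libraries was 0.887 FPKM, under the minimum for testing, and its Epor-eGFP+ mean 1.51. Socs2 was a scarce transcript in both groups. Summed over Cish, Socs1, Socs2 and Socs3, the level was 11.6 ± 1.80 FPKM in Epor-eGFP- and 7.33 ± 0.372 in Epor-eGFP+ (no overlap, exact two-sided permutation p = 0.1). Socs2 lies on chromosome 10 from 95385362 to 95417180, minus strand.

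Pim1, the survival kinase, was the most abundant of the feedback and target genes, at 65.4, 62.8 and 54.1 FPKM in Epor-eGFP- and at 39.6, 33.3 and 25.3 in Epor-eGFP+. No value of one group reached the other, and library 2 was lowest in both. Pim1 fell by 0.89 on the log2 scale (SE 0.16, limma adjusted p = 0.00481), 1.86-fold, and kept its call in all 18 alternatives. It lies on chromosome 17 from 29490753 to 29496112, plus strand, and overlaps exons of the antisense gene Gm26885.

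Lyn, the Src family kinase, was the most abundant of the 10 genes in each library, at 149, 132 and 192 FPKM in Epor-eGFP- and at 94.2, 92.8 and 137 in Epor-eGFP+. The groups overlapped, because Epor-eGFP+ library 2 exceeded Epor-eGFP- library 1, yet library 2 was the highest of both groups. Lyn had no call (log2 fold change −0.55, SE 0.19, limma adjusted p = 0.0502), and by limma with the library number as a replicate block it was lower (adjusted p = 0.00266), in a fit that called 58.4% of all tested genes, 30.4% as lower. For the numbers 0, 1 and 2 the Epor-eGFP+ value was 0.631, 0.700 and 0.713 of the Epor-eGFP- value. Without Epor-eGFP+ library 2 the log2 fold change was −0.73 (adjusted p = 0.0116), and without Epor-eGFP- library 1 it was −0.67 (0.0438), within a range of adjusted p from 0.00266 to 0.254 over all alternatives. Lyn lies on chromosome 4 from 3678115 to 3813122, plus strand, with exons that overlap the minus strand gene Gm26857.

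**Figure D2:**
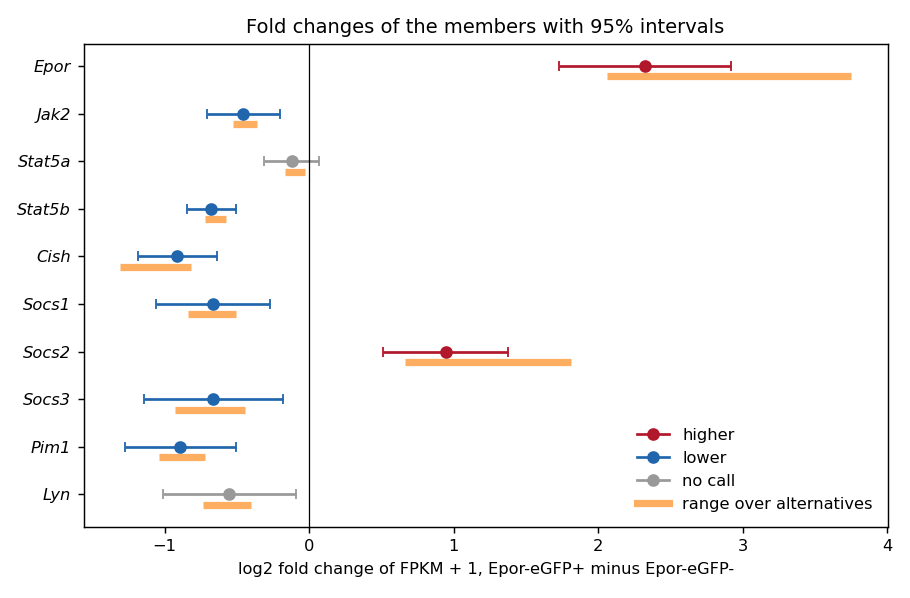
Log2 fold change of FPKM + 1, Epor-eGFP+ minus Epor-eGFP- (horizontal axis), of the 10 genes, as points with 95% intervals from limma, coloured by call at an adjusted p of 0.05. Orange bars span the values under the alternatives and stay on the same side of 0 as the point for all 10 genes. Grey points mark Stat5a and Lyn, which had no call.

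The order of the levels changed between the groups mainly in its lower part. In Epor-eGFP- the means ran from Lyn (158 FPKM) through Pim1 (60.8), Stat5b (47.8), Jak2 (27.6), Stat5a (20.9), Socs1 (4.57), Socs3 (3.31), Cish (3.23) and Socs2 (0.469) to Epor (0.335). Neighbours whose library values overlapped were Socs1 and Socs3, Socs3 and Cish, and Socs2 and Epor. In Epor-eGFP+ the order was Lyn (108), Pim1 (32.7), Stat5b (29.5), Jak2 (19.9), Stat5a (19.2), Epor (5.96), Socs1 (2.48), Socs2 (1.85), Socs3 (1.75) and Cish (1.25). There Pim1 overlapped with Stat5b, Jak2 with Stat5a, Socs1 with Socs2, Socs2 with Socs3, and Socs3 with Cish. Epor thus moved from rank 10 to rank 6 and Cish from rank 8 to rank 10. Even in Epor-eGFP+ the receptor transcript was scarcer than that of Jak2 in each library.

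Among the 3 Epor-eGFP+ libraries, the genes split by which library was extreme. Epor, Socs2 and Lyn were highest in library 2, whose island macrophage markers summed to 11116 FPKM, against 5411 in library 0 and 3178 in library 1. The erythroid markers also summed highest in library 2, to 2089 FPKM, against 1314 in library 0 and 629 in library 1. Single erythroid markers went another way, as Car1, Ermap, Rhd, Aqp1 and Klf1 were each highest in library 0 and lowest in library 2. Jak2, Stat5a, Stat5b, Socs1, Socs3 and Pim1 were lowest in library 2. Cish peaked in library 0, and library 1 had its lowest value. The part of the macrophage or erythroid markers in these orders was not tested.

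**Figure D3:**
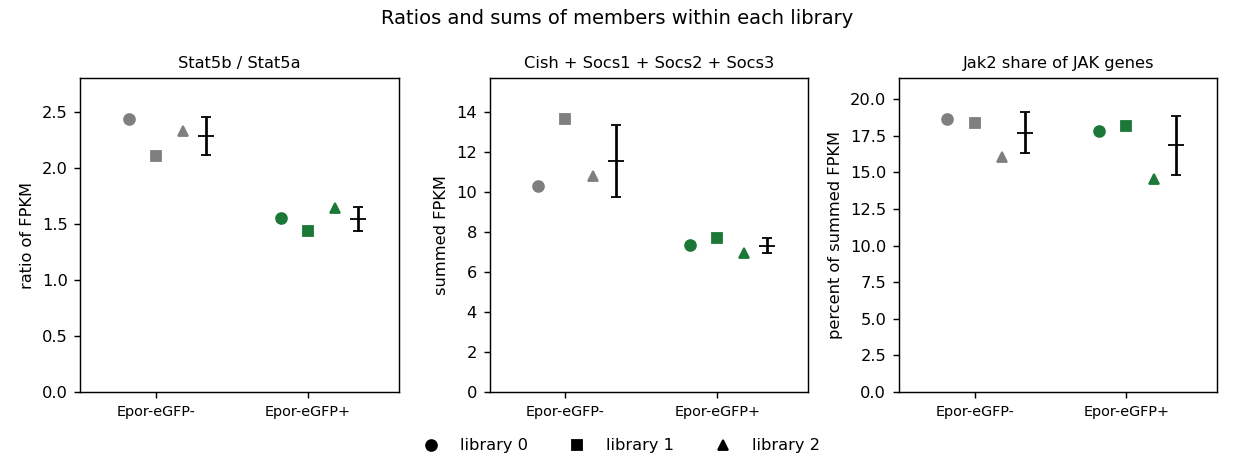
Ratio of Stat5b to Stat5a, summed FPKM of Cish and the 3 Socs genes, and percent share of Jak2 among the 4 JAK genes (vertical axes, from 0) in each library, with mean and SD as bars. The ratio and the sum are lower in every Epor-eGFP+ library, and the Jak2 share overlaps between the groups.

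Patterns like those of single members were common. Over the 6 libraries and 6696 genes, 818 genes had a Pearson correlation above 0.9 with Epor, 1151 with Cish and 228 with Socs3. Closest to Epor were Slc25a1, the mitochondrial citrate carrier gene (r = 0.999), Pccb (0.998), Isca1 (0.997) and Gas6, a ligand gene of the Mertk receptor (0.997). Gas6 was at 0.480 ± 0.141 FPKM in Epor-eGFP- and 11.4 ± 6.25 in Epor-eGFP+. It reached the minimum for testing only through its Epor-eGFP+ values, so it had to differ. Closest to Cish were Slc9a3r1 (0.998), Gramd1b (0.995), Vasp and Lasp1 (both 0.994), all lower in Epor-eGFP+. Closest to Socs3 were Piezo1 (0.991), Ubxn4 (0.991), Nfya (0.989) and Vdac3 (0.986). With 6 libraries in 2 groups, such correlations largely restate the group difference, and the libraries share their sorts and scaling.

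Genes around the receptor were read from 7 further lists, described by counts beside the background of 22.7% higher and 26.3% lower. Other JAK and STAT genes were lower in 5 of 8 cases and higher in none (median log2 fold change −0.48). Stat6, which acts downstream of interleukin 4, fell from 88.7 ± 6.55 FPKM to 52.2 ± 3.14 (−0.75, SE 0.08), and Stat3 from 63.2 ± 6.98 to 38.7 ± 1.62 (−0.69, SE 0.09). Stat2 (−0.66) and the kinase gene Tyk2 (−0.53) fell too. No gene of this list was higher with the replicate block or at an unadjusted p under 0.05 either. The log2 fold changes of Jak2 and Stat5b lay within the range of those called here. Adjusted p of the 4 named genes was at most 0.0172 by limma.

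Other negative regulators were lower in 11 of 22 cases and higher in 2 (median −0.25). Ptprc, the CD45 phosphatase of blood cells, fell from 258 ± 16.4 FPKM to 108 ± 9.22 (log2 fold change −1.25, SE 0.09, limma adjusted p = 0.000330). Ptpn1, a phosphatase that acts on JAK2, fell by 0.96, Socs6 by 0.82 and the ubiquitin ligase gene Cblb by 0.81. The 2 that rose, named after their values were seen, were Socs5 (0.61, SE 0.21, adjusted p = 0.0435) and Rnf7, a subunit gene of cullin ligases (0.31, SE 0.06). Among the SOCS family outside the 10 members, also named after their values were seen, Socs4 fell by 0.26 (SE 0.07, adjusted p = 0.0251) and Socs7 had no call (−0.02, SE 0.09). Only 1 gene of this list was called higher without Epor-eGFP- library 0, 1 or 2, or without Epor-eGFP+ library 0 or 2, each left out alone.

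Adaptors and effectors that the receptor uses were lower in 13 of 28 cases and higher in none by limma with or without the block, also unadjusted (median −0.23). Plcg2, a phospholipase gene of blood cells, fell from 141 ± 4.12 FPKM to 74.9 ± 8.02 (log2 fold change −0.91, SE 0.09), Mapk3, which encodes the kinase ERK1, by 0.77, Foxo3 by 0.70 and Pik3cd by 0.64. Of 8 Src family kinases and regulators besides Lyn, 4 fell and 1 was called higher (median −0.30, or −0.18 without Epor-eGFP- library 0 and −0.57 without Epor-eGFP- library 1). The gene called higher was Src itself, at 0.397 ± 0.111 FPKM in Epor-eGFP- and 5.33 ± 1.59 in Epor-eGFP+ (log2 fold change 2.15, SE 0.19), and it too reached the minimum of 1 FPKM only through its Epor-eGFP+ values, so its call is a description. The myeloid kinase gene Fgr (−1.22), the adaptor gene Pag1 (−0.93) and Csk, which encodes the kinase that restrains Src family members (−0.53), fell. In Epor-eGFP+ Fgr was at 52.2 ± 7.36 FPKM. Without Epor-eGFP+ library 1, 2 genes of this list were called higher.

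**Figure D4:**
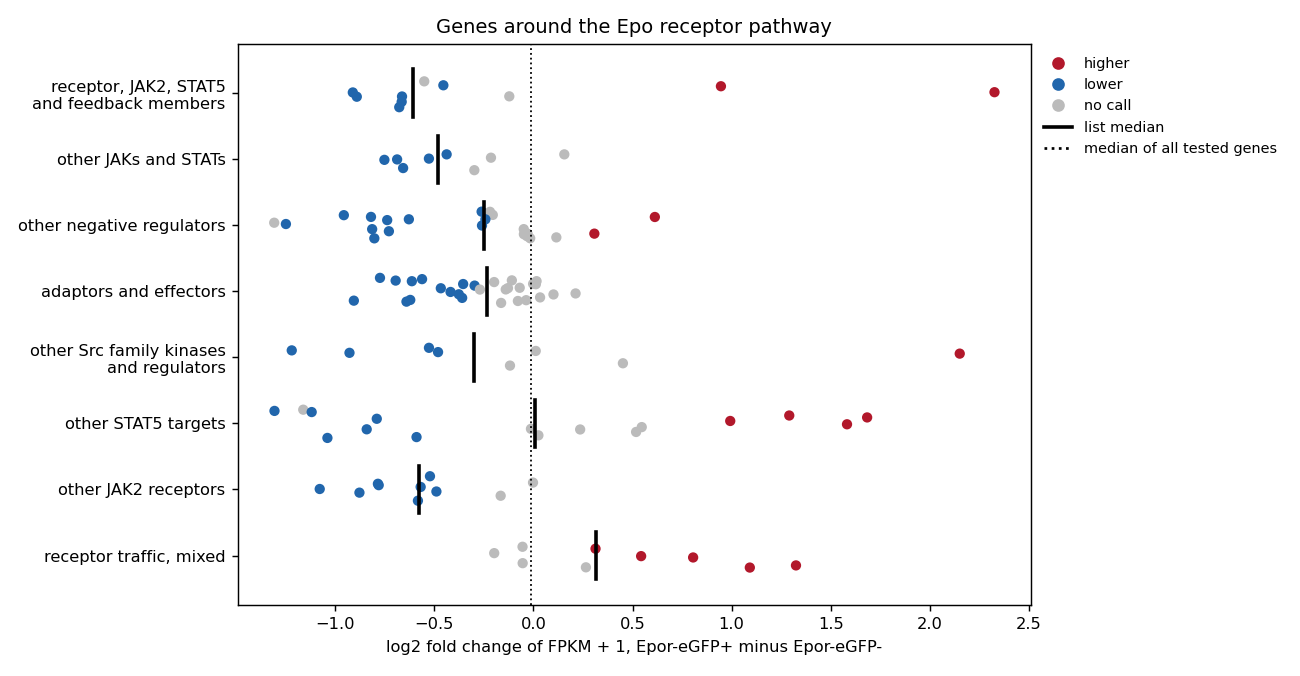
Log2 fold change of FPKM + 1, Epor-eGFP+ minus Epor-eGFP- (horizontal axis), of each tested gene in the member set and 7 lists (rows), coloured by call, with the list median as a black bar. The dotted line is the median of all tested genes, −0.01. Medians of the members, the JAK and STAT genes and the JAK2 receptors lie between −0.61 and −0.48, that of the STAT5 targets at 0.01.

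Other genes known as STAT5 targets were split. Of 16 tested, 4 rose and 6 fell (median log2 fold change 0.01), shares not far from the 22.7% and 26.3% of all tested genes, so that nothing about this list is read from them. Tfrc, the transferrin receptor gene that erythroid cells use for iron uptake, rose from 10.5 ± 2.50 to 35.7 ± 5.06 FPKM (1.68, SE 0.18, limma adjusted p = 0.000868). The cyclin genes Ccnd1 (1.58) and Ccnd2 (1.29) rose as well, and Bcl6, which STAT5 is known to repress, fell from 22.4 ± 4.74 to 8.35 ± 0.788 FPKM (−1.31, SE 0.16). Pim2, Pim3, Bcl2l1 and Mcl1 are named after their values were seen. Pim2, the close relative of Pim1, fell by 0.84 (SE 0.14), and Pim3 had no call (−0.01, SE 0.20). Bcl2l1, the survival gene of erythroid cells that encodes Bcl-xL, was at 14.8 ± 1.98 against 12.4 ± 0.269 FPKM and had no call (0.24, adjusted p = 0.0954), whereas Mcl1, a related survival gene, fell by 1.04 (SE 0.10). The list holds Bcl6 beside genes that STAT5 is known to induce. The sign of its median turned when 1 library was left out, and it was −0.16 without Epor-eGFP- library 2, −0.04 without Epor-eGFP+ library 0 and −0.10 without Epor-eGFP+ library 1.

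Other cytokine receptor genes whose proteins signal through JAK2 were lower in 8 of 10 cases and higher in none by either limma fit, also unadjusted (median −0.58). Csf2rb, the beta chain gene shared by the receptors of GM-CSF, interleukin 3 and interleukin 5, was at 90.0, 90.3 and 101 FPKM in Epor-eGFP- and at 51.4, 51.4 and 48.5 in Epor-eGFP+. It fell by 0.88 on the log2 scale (SE 0.07, limma adjusted p = 0.000459), and its near-identical copy Csf2rb2, whose reads are hard to divide from it, by 1.08 (SE 0.07). Il6st, the gp130 gene (−0.78), and Ifngr2 (−0.78) fell too. Epor therefore differed in direction from these receptor genes, of which Csf2rb remained more abundant than Epor in each Epor-eGFP+ library. The last list was mixed, with genes named in connection with the receptor's transport and turnover, not all of them established partners. Of its 9 genes, 5 rose by limma's adjusted p, 6 were higher at an unadjusted p under 0.05, and none was lower by either (median 0.31), and with the replicate block 1 fell, Usp8, named after its value was seen. Tfr2, a transferrin receptor known to bind the Epo receptor in erythroid cells, rose from 3.84 ± 1.47 to 9.07 ± 1.79 FPKM (1.09, SE 0.25, adjusted p = 0.0111). Calr, a chaperone gene of the endoplasmic reticulum, rose by 1.32, P4ha1 by 0.81 and Egln3, an oxygen-sensing prolyl hydroxylase gene, by 0.54. Without Epor-eGFP- library 0, 3 genes of this list were called higher, and without Epor-eGFP+ library 2, 1 was called lower.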

How the data were processed

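RNA was sequenced from 6 libraries, 3 per group, per the labels' protocols with a TruSeq kit. The authors deposited FPKM values in a single table. The tools named, per the submitters' processing notes and without role or order, are Cufflinks 2.2.1, TopHat2 2.1.0, Trimmomatic 0.35 and bcl2fastq 2.19.1.403, with build mm10. The sources used here give no annotation, filter or scaling. Library medians ran from 11.7 to 11.8 FPKM and totals from 467176 to 519650. FPKM keep no read counts here, so depth is unknown and counting intervals are not given. Column names hold the group and numbers 0 to 2 where sample titles use 1 to 3, so each column was tied to a group only.

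Genes averaging at least 1 FPKM were tested with limma 3.58.1 (R 4.3.3) on log2(FPKM + 1), group as the only term, with eBayes, a mean-variance trend, two-sided tests and Benjamini-Hochberg adjustment over 10964 genes at 0.05. This scale understates changes of low genes. The fit was tested on simulated data. Deviations from group means correlated between same-numbered libraries (0.25, 0.38 and 0.35 for numbers 0, 1 and 2, against −0.39 to 0.07 otherwise), so the numbers were taken as pairs and a fit with the number as a block was an alternative; no label says what they mark. Exact permutation tests were used for ratios and sums. Other alternatives were pseudocounts of 0.1 and 0.5, no filter and a mean of at least 5 FPKM, common total, common upper quartile and quantile scaling, no trend, and libraries left out.

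The members, lists and tests were chosen with earlier results of these data known. Named are all members, up to 4 called genes per list by absolute log2 fold change (or 3 by FPKM where none passed), 4 genes most correlated with Epor, Cish and Socs3 (at least 10 FPKM in a group, no predicted genes), and Adgre1, Klf1, Vcam1 and Siglec1. Other genes given with values are said to be named after their values were seen. Of the cell marker lists, sums and counts are given, and of the erythroid list also the 4 genes of this rule. Some genes of the lists are not reported here and enter no count or sum. Gene positions are from GENCODE M21 (GRCm38) and promoter windows from RefSeq (GRCm38.p6).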

Additional observations from a re-analysis of the deposited data

How the results depend on the processing

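All 10 members kept their direction in all alternatives that tested them (16 to 18 per gene). Cish, Pim1 and Stat5b kept their calls throughout, and Stat5a had no call in any. Epor kept its call too, but the sort set its direction. For Epor and Socs2, which the minimum for testing helped to select, a kept direction is a description only. Lyn gained a call in 7 alternatives, among them the replicate block (−0.55, adjusted p = 0.00266), and that paired fit changed no other call among the members, with 2 higher and 7 lower. Left out singly, libraries gave 1611 to 2428 genes higher over the whole table, 1 to 2 members higher and a median for the STAT5 targets from −0.16 to 0.16. With both libraries numbered 0 left out, 482 genes were higher and 915 lower, 1 member higher and 3 lower, and 5 genes of the 7 lists higher and 26 lower, with a STAT5 target median of −0.00996. With 2 libraries a group, fewer samples were fitted. Under that setting Jak2, Socs1, Socs2 and Socs3 lost their calls (adjusted p = 0.125, 0.0609, 0.0520 and 0.105). Without both libraries numbered 2, Socs1 (0.0594) and Socs3 (0.122) lost theirs, and the STAT5 target median was −0.0113. With a mean of at least 5 FPKM, which leaves out the low members, 0 members were higher and 3 lower. Over all alternatives the adjusted p ran from 0.00875 to 0.0609 for Socs1 and from 0.00344 to 0.0520 for Socs2. Depth is unknown, so for members averaging under 5 FPKM over the 6 libraries (Epor, Cish and the Socs genes) the counting error cannot be given.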
